A study of Mus musculus with 7 samples.

Results

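Translation factors are the soluble proteins that bring the ribosome to an mRNA, start it at the right codon and then move it along the message. They were defined here by gene symbol, as the genes whose symbol begins with Eif1 to Eif6 or with Eef. The Y-linked Eif2s3y and the kinases named Eif2ak were left out. This rule found 60 of the 24346 genes in the table, and 58 of them reached the mean of 1 FPKM (fragments mapped to a gene, scaled to its transcript length and to the mapped fragments of the library) that was required for testing.

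The values come from bulk RNA sequencing of the cerebral cortex of male mice on a C57BL/6J background at postnatal day 100, with 1 library per animal. The 4 CrT-/y animals (replicates 0 to 3) were hemizygous for a deletion of exons 5 to 7 of Slc6a8, the X-linked creatine transporter gene. The 3 CrT+/y animals (replicates 1 to 3) were wild type, and the labels name no treatment for either group. The deletion is present in every cell of the body, so it is not limited to a cell type of the cortex. The comparison asks which transcripts differ in the cortex when creatine cannot be taken up through this transporter.

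Initiation begins when eIF2, loaded with GTP and the initiator tRNA, joins the small ribosomal subunit together with eIF1, eIF1A, eIF3 and eIF5. The eIF4F complex, made of the cap-binding protein eIF4E, the scaffold eIF4G and the helicase eIF4A, recruits this assembly to the mRNA cap. eIF5B then helps the large subunit to join. In elongation, eEF1A delivers aminoacyl-tRNA and eEF2 moves the ribosome along to the next codon. Much of the known control is on the proteins and not on their mRNA. Phosphorylation of the alpha subunit of eIF2, capture of eIF4E by the 4E-BPs and phosphorylation of eEF2 by its kinase all slow translation, and neurons use the last of these at synapses.

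Slc6a8 was read first as a check on the genotypes. It stood at 12.4, 14.9, 14.7 and 15.7 FPKM in CrT-/y cortex against 32.3, 29.6 and 28.05 FPKM in CrT+/y cortex. The groups did not overlap (log2 fold change -1.05 ± 0.09, SE; adjusted p = 0.00238, limma with Benjamini-Hochberg adjustment over all tested genes). FPKM is set over the whole gene, so reads from the exons that were not deleted are counted too. The 7 markers of cortical excitatory neurons summed to 711 to 867 FPKM per animal and none was at 0 in all animals. Markers of neighbouring tissue varied between animals. The summed level of 5 choroid plexus markers was 397 FPKM in replicate 2 of the CrT+/y group and 2.74 to 51.5 FPKM in the other animals. The 7 striatal markers summed to 88.7 to 373 FPKM. The 4 olfactory bulb markers summed to 6.66 to 18.5 FPKM in CrT-/y and 3.69 to 7.01 FPKM in CrT+/y.

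Among the 58 factors tested, Eef2k was higher in the CrT-/y cortex and 6 initiation factors were lower, namely Eif5b, Eif4e, Eif4g2, Eif2s1, Eif4g1 and Eif3b. The differences were modest, with the CrT-/y mean at 76.8% of the CrT+/y mean for Eif5b and at 121% for Eef2k. The call is an adjusted p under 0.1 in limma on log2(FPKM + 0.1), and a fold change on this scale slightly understates the change of weakly expressed genes. Over all 12988 genes tested, 2.9% were called higher, 7.25% lower and 10.1% in either direction. The shares of the factors, 1.72% higher and 10.3% lower, were near this background. Their median log2 fold change was -0.03, the same to 2 decimals as that of all tested genes, and 28 of 58 lay above 0 (48.3%) against 41.8% of all tested genes.

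**Figure D1:**
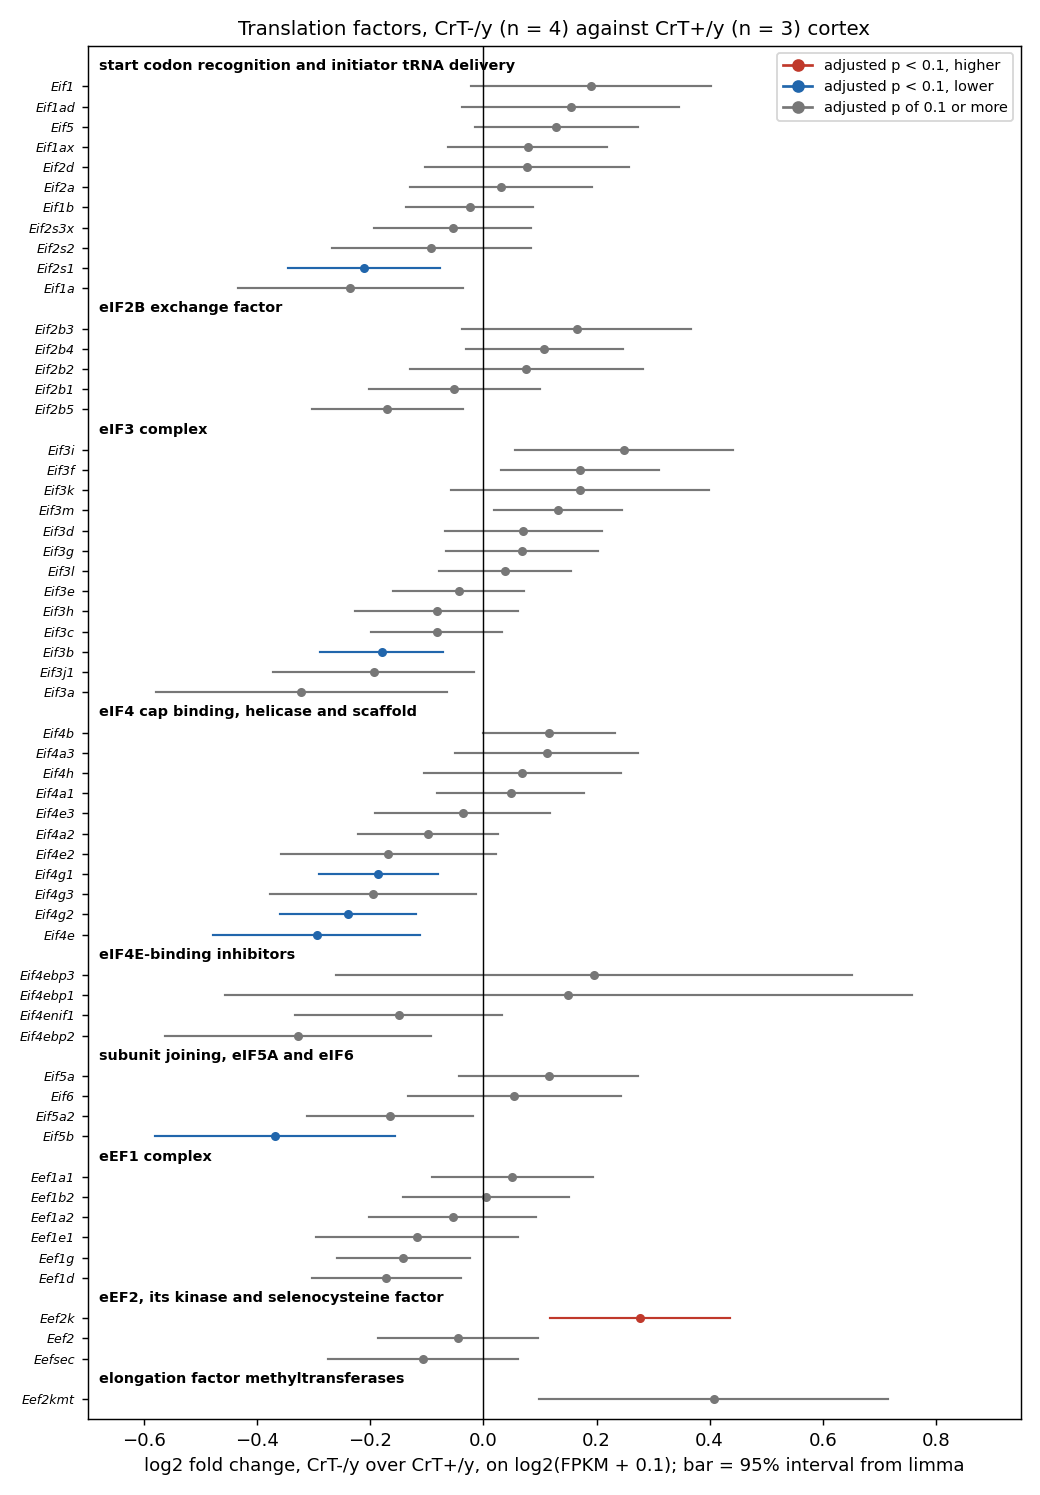
Log2 fold change of each of the 58 tested translation factors, CrT-/y over CrT+/y, on log2(FPKM + 0.1), with the 95% interval from limma and grouped by role (4 CrT-/y and 3 CrT+/y animals). Eef2k is the point called higher, and the 6 points called lower lie among the eIF2, eIF3, eIF4 and subunit joining factors.

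Eif5b encodes the GTPase that joins the large to the small ribosomal subunit at the end of initiation. It had levels of 11.6, 11.4, 12.03 and 11.3 FPKM in the CrT-/y group and of 17.0, 15.7 and 12.6 FPKM in the CrT+/y group. The groups did not overlap, but replicate 3 of the CrT+/y group lay close to the CrT-/y range. The log2 fold change was -0.37 ± 0.09 (SE; adjusted p = 0.0634, limma).

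Eif4e encodes the protein that binds the mRNA cap, and its availability is the step at which the 4E-BPs act. Its values were 51.5, 45.4, 47.1 and 43.4 FPKM in CrT-/y cortex and 63.5, 57.0 and 52.1 FPKM in CrT+/y cortex. The highest CrT-/y animal and the lowest CrT+/y animal were nearly level. The log2 fold change was -0.30 ± 0.08 (SE; adjusted p = 0.0754, limma).

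Of the 3 scaffold genes of the eIF4G family, 2 were lower. Eif4g1, the scaffold that holds eIF4E and eIF4A, was at 57.8, 56.7, 58.1 and 56.4 FPKM in CrT-/y cortex against 66.6, 65.5 and 63.4 FPKM in CrT+/y cortex. Both groups were tight and clearly apart, and the log2 fold change was -0.19 ± 0.05 (SE; adjusted p = 0.0612, limma). Eif4g2 encodes DAP5, a relative of eIF4G that lacks the eIF4E binding site and serves initiation without the cap-binding protein. It measured 84.8, 77.5, 84.1 and 78.9 FPKM in CrT-/y animals, compared with 93.8, 96.1 and 97.9 FPKM in CrT+/y animals. The gap between the groups was wider than the spread within either (log2 fold change -0.24 ± 0.05, SE; adjusted p = 0.0503, limma). Eif4g3, the other scaffold, gave 58.4 to 61.0 FPKM in CrT-/y and 77.8, 67.4 and 60.0 FPKM in CrT+/y, so its groups overlapped and it was not called.

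Eif2s1 encodes the alpha subunit of eIF2, the subunit that the stress kinases phosphorylate. It reached 13.4, 11.9, 13.1 and 12.5 FPKM in CrT-/y cortex and 14.6, 14.9 and 14.8 FPKM in CrT+/y cortex. All CrT+/y animals lay above all CrT-/y animals (log2 fold change -0.21 ± 0.06, SE; adjusted p = 0.0800, limma). The genes for the beta and gamma subunits, Eif2s2 and Eif2s3x, had log2 fold changes of -0.09 and -0.05, and neither passed the test. Of the 11 genes for start codon recognition and initiator tRNA delivery, 6 lay above 0 and 5 below, and Eif2s1 was the 1 call.

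Eif3b encodes a subunit of eIF3. It had levels of 28.3, 28.7, 28.3 and 27.5 FPKM in the CrT-/y group and of 32.7, 31.5 and 31.6 FPKM in the CrT+/y group. The groups were narrow and did not overlap (log2 fold change -0.18 ± 0.05, SE; adjusted p = 0.0697, limma).

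Eef2k encodes the calcium and calmodulin dependent kinase that phosphorylates eEF2 and so slows elongation. It measured 7.92, 8.66, 8.27 and 7.78 FPKM in CrT-/y animals, compared with 6.42, 6.61 and 7.12 FPKM in CrT+/y animals. Every CrT-/y animal was above every CrT+/y animal (log2 fold change 0.28 ± 0.07, SE; adjusted p = 0.0627, limma). Its substrate Eef2 did not pass the test, with 370 to 394 FPKM in CrT-/y and 374 to 425 FPKM in CrT+/y (log2 fold change -0.04, 95% interval -0.19 to 0.10).

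**Figure D2:**
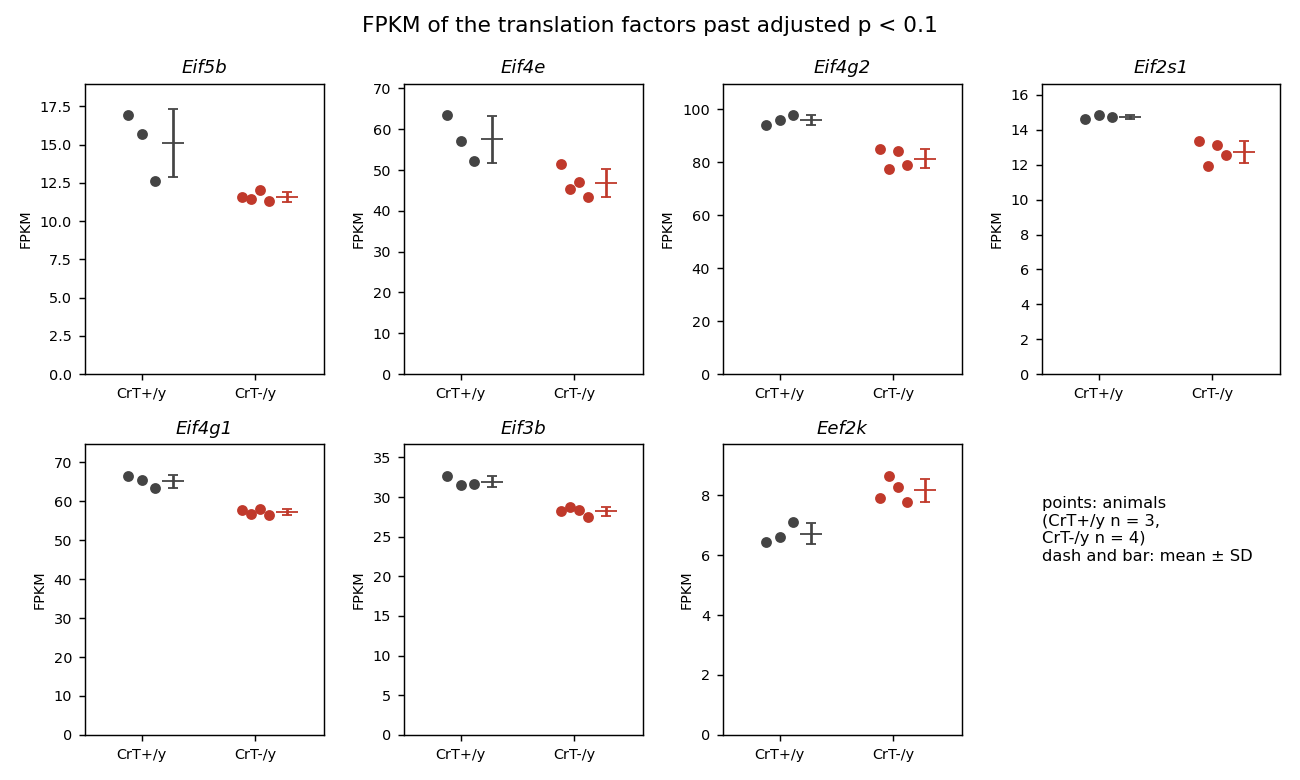
FPKM of the 7 called translation factors in each animal (points; 3 CrT+/y and 4 CrT-/y), with the mean and SD of each group beside them and each vertical axis starting at 0. The groups do not overlap in any of the 7 panels, and for Eif5b and Eif4e the lowest CrT+/y animal lies near the CrT-/y animals.

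With 4 against 3 animals an exact two-sided permutation test over the 35 splits cannot give a p below 0.0286. That smallest value was reached by Eef2k, Eif5b, Eif4g2, Eif2s1, Eif4g1 and Eif3b, and Eif4e gave an exact permutation p of 0.0571. All 7 calls were lost when replicate 1, 2 or 3 of the CrT-/y group or replicate 1 of the CrT+/y group was left out, Eif4e and Eif4g2 were the calls that stayed without replicate 0 of the CrT-/y group, and Eif4g2 alone stayed without replicate 2 of the CrT+/y group. In the 4 fits that lost all 7 calls, 0.0847 to 0.678% of all tested genes were called higher and 0.408 to 1.96% lower, and the log2 fold changes kept their sign, for example 0.25 to 0.30 for Eef2k, -0.19 to -0.17 for Eif4g1 and -0.39 to -0.28 for Eif5b. In these bulk libraries fewer cells of a type and less RNA per cell cannot be told apart. The excitatory neuron marker Neurod6 and the endothelial markers Flt1 and Pecam1 were called lower and the inhibitory neuron marker Gad1 higher in the same fit, while the summed levels of these 3 marker lists overlapped between the groups (721 to 806 against 711 to 867 FPKM for 7 excitatory markers, 842 to 981 against 907 to 926 FPKM for 6 inhibitory markers, 55.8 to 70.1 against 67.1 to 77.8 FPKM for 4 endothelial markers, CrT-/y first). Their part in the factor differences was not tested.

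The balance of higher and lower calls moved with the scaling, for the factors and for all tested genes. Under quantile normalization 6 factors were called higher and 1 lower, under upper quartile scaling 7 higher and 2 lower, and under median centring 1 higher and 2 lower, against 1 and 6 on the FPKM as deposited. Over all tested genes the shares called higher and lower were 4.07% and 4.27% under quantile normalization, 5.71% and 3.56% under upper quartile scaling and 3.77% and 4.06% under median centring. No called factor was called in the opposite direction under these scalings. Eef2k was called higher and Eif5b lower under all of these scalings. The factors called higher under both quantile normalization and upper quartile scaling were Eef2k, Eif3f, Eif3i, Eif3m, Eif4b and Eif5. Median centring moved the median of all tested genes from -0.03 to 0.00 on the log2 scale.

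The separation of the groups, read without a test, covered more factors than the calls did. In 5 factors every CrT-/y animal was above every CrT+/y animal, which is 8.62% of the factors tested, beside 6.57% of all tested genes. In 12 factors every CrT-/y animal was below, which is 20.7%, beside 15% of all tested genes. The higher ones were Eef2k, Eef2kmt, Eif3f, Eif3m and Eif4b. The lower ones were, besides the 6 called, Eef1d, Eef1g, Eif2b5, Eif3c, Eif4a2 and Eif5a2.

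In the eIF3 complex, the large assembly that keeps the ribosomal subunits apart and bridges to eIF4G, 13 of 14 genes were tested, 7 lay above 0 and 6 below, and Eif3b was the 1 call. Eif3a, the largest subunit, was among the 3 lowest fold changes of the family. It reached 40.1, 39.8, 39.3 and 38.8 FPKM in CrT-/y cortex and 58.3, 52.6 and 39.3 FPKM in CrT+/y cortex. Replicates 1 and 2 of the CrT+/y group stood far above the rest and replicate 3 sat inside the CrT-/y range, and the difference did not pass the test (log2 fold change -0.32 ± 0.11, SE; adjusted p = 0.130, limma). Eif3i, a small subunit, showed the opposite arrangement, with 51.9, 51.8, 49.3 and 52.4 FPKM in CrT-/y against 41.6, 38.4 and 50.3 FPKM in CrT+/y. Again replicate 3 of the CrT+/y group lay within the CrT-/y range (log2 fold change 0.25 ± 0.09, SE; adjusted p = 0.121, limma). Eif3e was at 50.1 to 53.8 FPKM in CrT-/y and at 52.4 to 55.8 FPKM in CrT+/y (log2 fold change -0.04, 95% interval -0.16 to 0.07). Eif3j2, a close copy of Eif3j1, was listed at no more than 0.0286 FPKM in any animal and was not tested. Eif3j1 was at 24.7 to 32.3 FPKM, and how reads shared by the copies were divided was not tested.

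In the eIF4 group, 11 of 12 genes were tested, with 3 called lower (27.3%, beside 7.25% of all tested genes) and none higher (beside 2.9%). At an unadjusted p under 0.05 in limma, 0 were higher and 4 lower, beside 1064 and 2188 of 12988 tested genes. Eif4b was higher in CrT-/y without overlap but not called (log2 fold change 0.12). It was called higher under quantile normalization, upper quartile scaling and the length correction, where only Eif4g2, under upper quartile scaling, stayed lower in this group. The helicase genes did not pass the test. Eif4a1 was at 111 to 124 FPKM in CrT-/y and at 108 to 114 FPKM in CrT+/y (log2 fold change 0.05, 95% interval -0.08 to 0.18). Eif4a2, the helicase paralog abundant in neurons, was at 267, 274, 270 and 266 FPKM in CrT-/y and at 306, 279 and 281 FPKM in CrT+/y. Its groups did not overlap, but the difference was small (log2 fold change -0.10 ± 0.05, SE; adjusted p = 0.291, limma). Eif4e1b, an eIF4E relative of the germ line, was listed at 0 in 6 animals and at 0.0242 FPKM in the other, and was not tested.

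The inhibitors that bind eIF4E gave no call among 4 genes (0 higher and 1 lower at an unadjusted p under 0.05 in limma). Eif4ebp2, the 4E-BP known as the main form in brain, measured 15.3, 15.6, 16.4 and 13.5 FPKM in CrT-/y animals, compared with 19.7, 21.7 and 16.2 FPKM in CrT+/y animals. It was just short of the threshold, and replicate 3 of the CrT+/y group again lay below the highest CrT-/y animal (log2 fold change -0.33 ± 0.10, SE; adjusted p = 0.104, limma). Eif4ebp1 was scarce and uneven, at 2.99, 3.34, 3.27 and 4.07 FPKM in CrT-/y and at 3.01, 1.86 and 5.02 FPKM in CrT+/y, and its 95% interval ran from -0.46 to 0.76 on the log2 scale.

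Of the other initiation factors, eIF2B, the exchange factor that reloads eIF2 with GTP, gave no call in 5 genes (0 higher and 1 lower at an unadjusted p under 0.05 in limma). Its catalytic subunit gene Eif2b5 was between 17.1 and 19.0 FPKM in CrT-/y and at 21.2, 20.7 and 19.5 FPKM in CrT+/y. The groups were apart by a small margin (log2 fold change -0.17 ± 0.06, SE; adjusted p = 0.126, limma). Eif5a, whose hypusinated product eases peptide bond formation at difficult stretches, was at 189 to 196 FPKM in CrT-/y and at 177, 161 and 197 FPKM in CrT+/y (log2 fold change 0.12, 95% interval -0.04 to 0.27). Eif6, which keeps the large subunit from joining too early, was at 20.3 to 21.6 FPKM in CrT-/y and at 17.2 to 21.8 FPKM in CrT+/y (log2 fold change 0.05, 95% interval -0.13 to 0.24).

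On the FPKM scale, which is per length, the order of the mean over the 7 animals began with Eef1a1, Eef1a2, Eef2 and Eif4a2. Eef1a1, which carries aminoacyl-tRNA to the ribosome, was at 1102, 1052, 1099 and 1011 FPKM in CrT-/y and at 1013, 1023 and 1050 FPKM in CrT+/y. Eef1a2, the form that replaces it in mature neurons and muscle, was at 491, 493, 467 and 518 FPKM in CrT-/y and at 517, 477 and 540 FPKM in CrT+/y. The levels of these 4 genes did not overlap one another in any animal. The genotypes overlapped within Eef1a1, Eef1a2 and Eef2 but not within Eif4a2 (95% intervals -0.09 to 0.19 for Eef1a1 and -0.20 to 0.09 for Eef1a2, log2 scale). None of the 6 genes whose symbol begins with Eef1 was called (0 higher and 2 lower at an unadjusted p under 0.05 in limma). The 2 were Eef1d and Eef1g, subunits of the exchange complex that recharges eEF1A, with log2 fold changes of -0.17 and -0.14.

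Eef2kmt, which encodes a lysine methyltransferase of eEF2, had the highest fold change of the family but was scarce. It reached 2.30, 2.34, 2.75 and 2.91 FPKM in CrT-/y cortex and 1.99, 1.63 and 2.14 FPKM in CrT+/y cortex. The groups did not overlap, and the difference did not pass the test (log2 fold change 0.41 ± 0.14, SE; adjusted p = 0.117, limma).

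**Figure D3:**
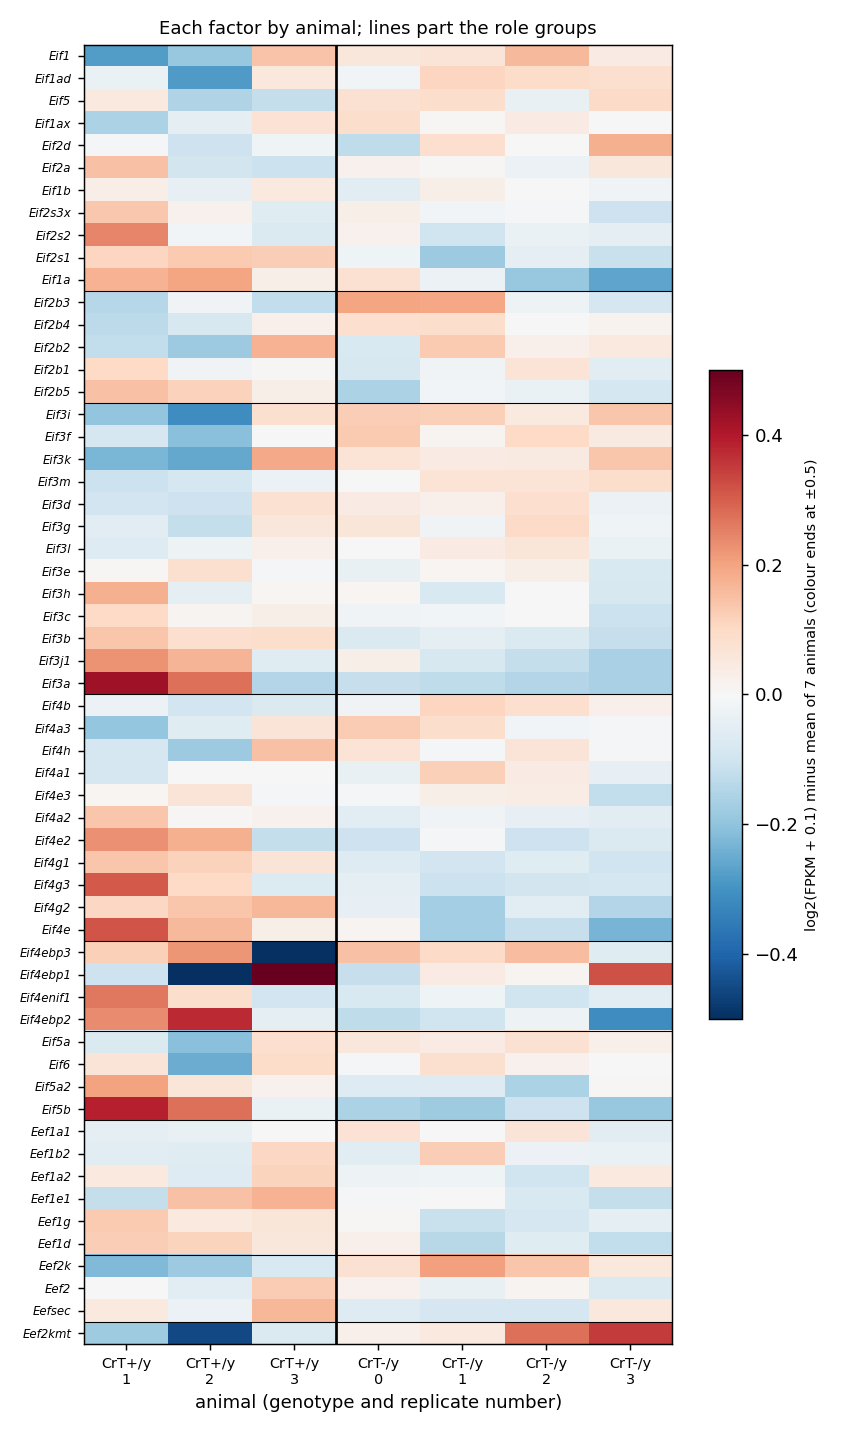
Each row is a tested translation factor and each column an animal, coloured by its log2(FPKM + 0.1) minus the mean of the 7 animals (colour ends at 0.5 either way), with lines between role groups. Replicate 3 of the CrT+/y group is coloured like the CrT-/y animals in many rows, among them Eif3a, Eif3i and Eif4g3.

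That arrangement was counted over the whole family. Replicate 3 of the CrT+/y group lay nearer to the CrT-/y mean than to the mean of the other CrT+/y animals in 38 of 58 factors (65.5%), beside 56.9% of all tested genes. Replicate 1 did so in 10 factors and replicate 2 in 17 (17.2% and 29.3%, beside 36.1% and 41.6% of all tested genes). The SD of log2 values was larger in the CrT+/y than in the CrT-/y group in 44 of 58 factors (75.9%), beside 71.1% of all tested genes. Without replicate 3 of the CrT+/y group, 14 factors were called higher and 17 lower, or 24.1% and 29.3% of those tested, beside 10.3% and 18.4% of all tested genes. Eif3a then stood at a log2 fold change of -0.49 (adjusted p = 0.0036), Eif3i at 0.36 (adjusted p = 0.0067) and Eif4ebp2 at -0.45 (adjusted p = 0.0139, all limma). In each of these genes the replicate left out lay inside the CrT-/y range. Leaving it out therefore had to widen the difference and narrow the CrT+/y spread, and these p-values add no support of their own. The lone library that was left out carries the same wild-type label as the other CrT+/y libraries, and nothing in the labels sets it apart.

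**Figure D4:**
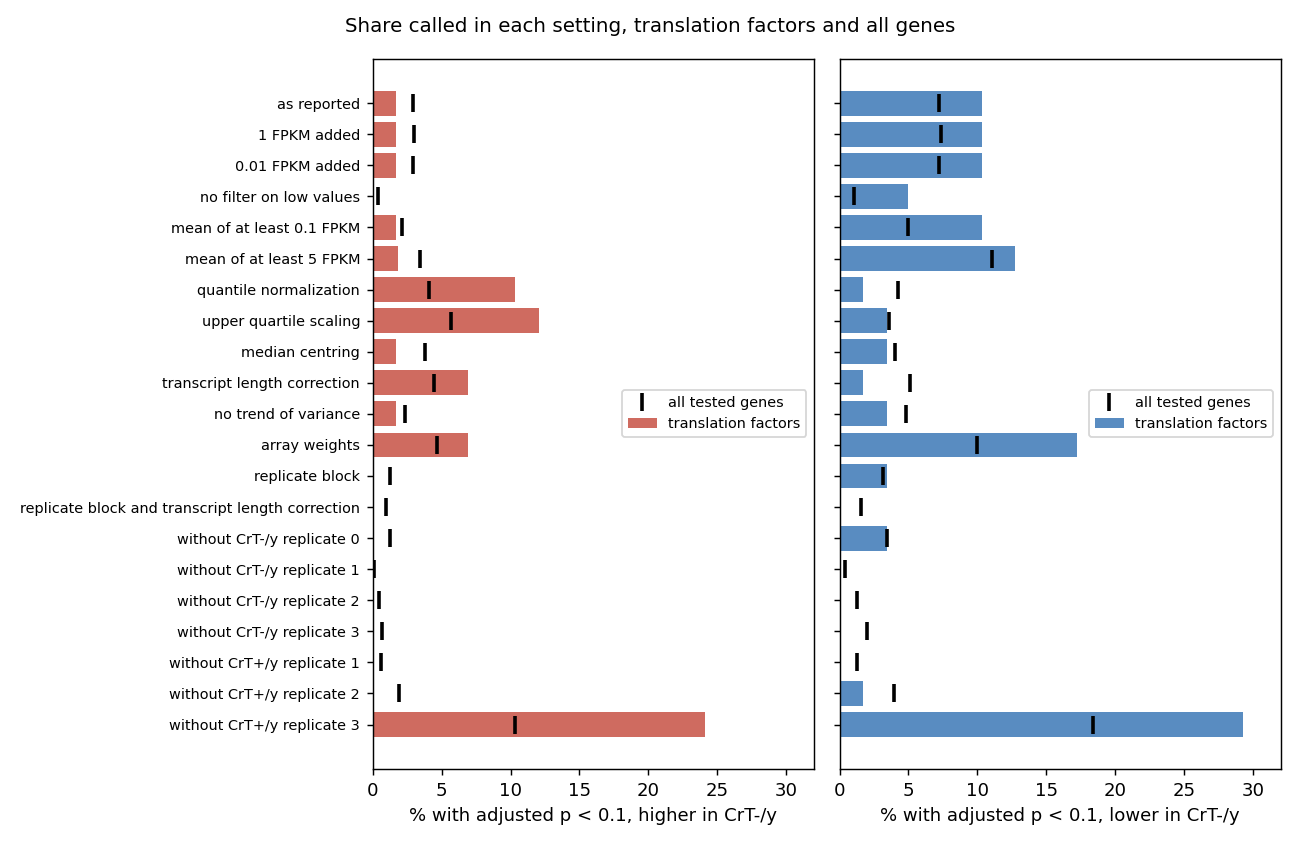
Share of the tested translation factors (bars) and of all tested genes (black ticks) with an adjusted p under 0.1 in limma, higher (left) or lower (right) in CrT-/y, in the setting as reported and in 20 alternatives. Leaving out replicate 3 of the CrT+/y group gives the longest bar on each side, 24.1% higher and 29.3% lower, and leaving out replicate 1, 2 or 3 of the CrT-/y group or replicate 1 of the CrT+/y group gives 0.

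The fold changes of the factors were ordered by transcript length. Across the 58 factors Spearman's rho between the log2 fold change and the length of the annotated transcript was -0.55, beside -0.18 across 12912 tested genes with a length. This is a description across genes that were measured in the same 7 libraries. Of 22 factors under 2000 bases, 17 lay above 0 with a median log2 fold change of 0.07 (0.02 for all tested genes of that length), and none was called in limma. Of 24 factors between 2000 and 4000 bases, 16 lay below 0 with a median of -0.05 (-0.03 for all), and 2 were called lower. Of 12 factors of 4000 bases or longer, 9 lay below 0 with a median of -0.19 (-0.06 for all). That last class held 4 of the 6 factors called lower, Eif5b, Eif4e, Eif4g2 and Eif4g1, and also Eef2k. The share of all tested genes called in each length class was not computed, so these calls have no background of the same length. When the trend of each animal's values with length was taken out over all genes, rho over the factors was -0.40 and over all tested genes 0.00, and 4 factors were called higher (Eef2k, Eif3f, Eif3i and Eif4b) and 1 lower (Eif5b). These are 6.90% and 1.72% of the factors, beside 4.44% and 5.09% of all tested genes in that fit.

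**Figure D5:**
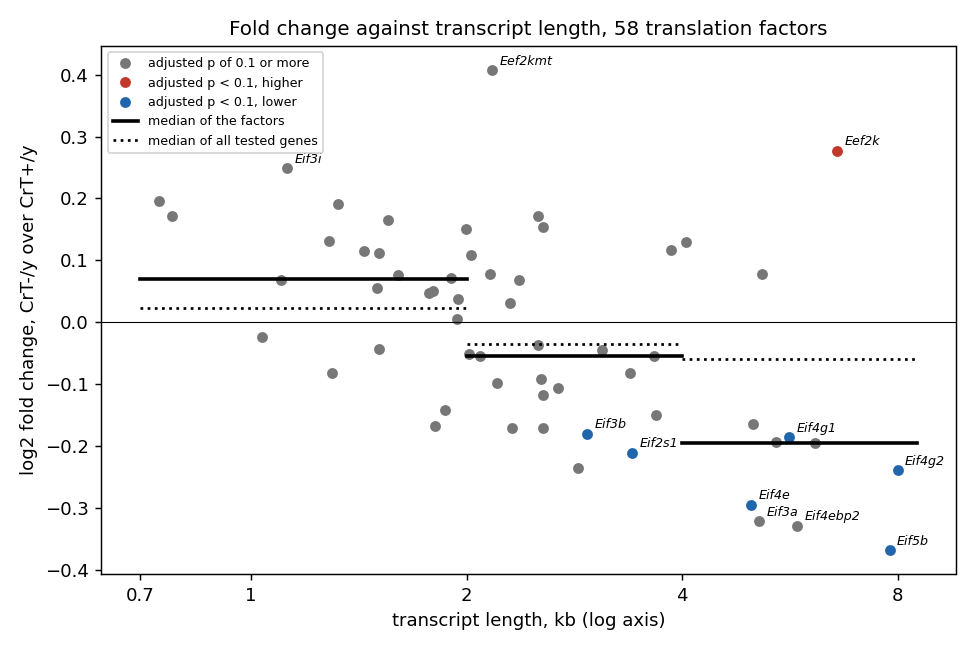
Log2 fold change of 58 translation factors, CrT-/y over CrT+/y, against transcript length in kb (log axis), with the median of the factors (solid) and of all tested genes (dotted) in 3 length classes. The median of the factors passes from 0.07 in the shortest class to -0.19 in the longest, and Eef2k lies alone among the long transcripts above 0.2.

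A group of factor mRNAs begin with a 5′ terminal oligopyrimidine tract (TOP), through which mTORC1 and LARP1 control their translation. The 9 TOP factors (Eef1a1, Eef1b2, Eef1d, Eef1g, Eef2, Eif3e, Eif3f, Eif3h and Eif4b) held no call in limma (1 higher and 2 lower at an unadjusted p under 0.05) and had a median log2 fold change of -0.04. The 49 tested factors outside this group had a median of -0.02 and held all 7 calls, 1 higher and 6 lower (12.2% lower). Of all tested genes 2.9% were called higher and 7.25% lower, and 1064 and 2188 of 12988 had an unadjusted p under 0.05 in limma. With shares of this size, the absence of a call among 9 genes does not set the TOP factors apart.

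Promoter sequence was searched for shared elements, a search chosen after the values were seen. RefSeq promoters (GRCm38.p6, 250 bases before to 50 after the start) were found for 46 of the factors. The E-box CACGTG, read the same on both strands and bound by MYC, USF and CLOCK family proteins, was present in 12 of these 46 (26.1%), beside 11.9% of promoters of tested genes. Among the 7 called factors it was present for Eef2k, Eif4e and Eif4g1, which were called in opposite directions, and the 12 factors with it were split into 6 above and 6 below 0. The ETS-like element CCGGAAGT, searched on both strands, was present in 8 of 46 (17.4%), beside 8.56% of promoters of tested genes. The ATF4 element TGATGCAA, searched on both strands, was in none of the 46 windows, beside 0.638% of promoters of tested genes. The E-boxes of the called factors are shown with their flanks, in capitals, on the plus strand, to let the sites of a factor that was higher and of factors that were lower be compared.
Eef2k, chr7:120842788-120842817, just before the annotated gene: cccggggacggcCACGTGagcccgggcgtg
Eif4e, chr3:138527028-138527057, within an exon of a transcript with an upstream start: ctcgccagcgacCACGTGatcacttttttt
Eif4e, chr3:138527192-138527221, within the same exon: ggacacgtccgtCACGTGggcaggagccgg
Eif4g1, chr16:20672661-20672690, within an intron of longer transcripts: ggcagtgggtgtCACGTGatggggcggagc
A match to these letters is a description of the sequence and not a measured site of binding.

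The genes around the factors were taken from a list of 39 regulators and partners, all of which were tested. None was called higher in limma (0 also at an unadjusted p under 0.05), and 3 were called lower (7.69%, beside 7.25% of all tested genes): Eif2ak1, Pabpc4 and Abce1. Eif2ak1 encodes HRI, the haem-regulated kinase that phosphorylates the product of Eif2s1. It had levels of 29.3, 27.5, 27.5 and 28.02 FPKM in the CrT-/y group and of 37.2, 35.6 and 35.6 FPKM in the CrT+/y group. The groups were far apart for their spread (log2 fold change -0.36 ± 0.05, SE; adjusted p = 0.0225, limma), and this call was kept in all 20 alternatives. The other eIF2 alpha kinases named here did not pass the test, with log2 fold changes of 0.07 for Eif2ak3 (PERK) and 0.07 for Eif2ak4 (GCN2), and the phosphatase subunit gene Ppp1r15a (GADD34) had 0.14.

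Pabpc4, a cytoplasmic poly(A)-binding protein that contacts eIF4G, measured 12.8, 11.9, 11.6 and 12.1 FPKM in CrT-/y animals, compared with 17.9, 14.1 and 15.8 FPKM in CrT+/y animals. The CrT+/y animals were all higher and more scattered (log2 fold change -0.38 ± 0.08, SE; adjusted p = 0.0474, limma). Its more abundant relative Pabpc1 was at 79.2, 76.6, 75.2 and 68.6 FPKM against 113, 98.2 and 76.7 FPKM, with replicate 3 of the CrT+/y group again in the CrT-/y range, and was not called (adjusted p = 0.120, limma). Abce1, the ATPase that splits the ribosome after termination, reached 27.2, 26.0, 26.9 and 24.5 FPKM in CrT-/y cortex and 34.2, 31.0 and 29.3 FPKM in CrT+/y cortex, without overlap (log2 fold change -0.26 ± 0.07, SE; adjusted p = 0.0627, limma). Mtor, the kinase that phosphorylates the 4E-BPs, was at 17.8 to 19.0 FPKM in CrT-/y and at 17.1 to 19.2 FPKM in CrT+/y (log2 fold change 0.02, 95% interval -0.12 to 0.16).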

How the data were processed

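Cortical RNA of 7 male mice was sequenced as paired ends by the authors (mRNA library kit, Illumina). They aligned reads to mm10 with the Tuxedo protocol (Bowtie and Cuffnorm in the submitters' processing notes), kept uniquely placed reads (at most 2 mismatches) on known exons or junctions, and deposited a single table with FPKM for every gene and animal. FPKM hold no read counts, so no count test or counting interval was used and the precision rests on the spread between animals. Groups and replicate numbers came from the sample labels.

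Genes whose mean reached 1 FPKM (12988 of 24346) were fitted on genotype as log2(FPKM + 0.1) with limma 3.58.1 (R 4.3.3; variance trend, Benjamini-Hochberg adjustment, calls at adjusted p under 0.1). Exact permutation tests over the 35 splits were two-sided. The script was tested on simulated data of this comparison: of 200 changed genes among 12988, limma recovered 0% at a log2 change of 0.2, 4.5% at 0.3, 73% at 0.6 and 94.5% at 1, and of its calls 0% were false at 0.3, 16.1% at 0.6 and 13.3% at 1. Transcript lengths are from GENCODE M21 (GRCm38, the build called mm10), the principal or longest complete transcript; 23310 symbols matched directly, 666 by synonym and 370 not at all. Other steps used Python 3.11.15, pandas 2.3.3 and scipy 1.17.1.

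The members, role groups and gene lists were chosen with earlier results of these data known. Named are the factors with adjusted p under 0.1, the 3 highest and 3 lowest fold changes, a set list of core factors (Eif2s1, Eif2b5, Eif3e, Eif4e, Eif4a1, Eif4a2, Eif4g1, Eif4ebp1, Eif4ebp2, Eif5a, Eif6, Eef1a1, Eef1a2, Eef2, Eef2k), the factors below the filter, called partners with Eif2ak3, Eif2ak4, Ppp1r15a, Mtor and Pabpc1, and Slc6a8; others were chosen after their values were seen. Alternatives were other added constants, filters, scalings, a length correction, no variance trend, array weights, the replicate block and leaving out each animal. Marker lists of astrocytes (330 to 393 FPKM summed), oligodendrocytes (792 to 1454), microglia (105 to 118), ependyma (5.72 to 11.0) and red blood cells (21.1 to 72.5) held no call in limma. In the olfactory bulb list (6.66 to 18.5 in CrT-/y, 3.69 to 7.01 in CrT+/y) Cdhr1 was called higher. An item of the excitatory neuron marker list is not reported here and was left out of its sum.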

Additional observations from a re-analysis of the deposited data

How the results depend on the processing

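No factor or partner named above reversed a call. The 1 factor called higher became 0 with no filter on low values, 6 under quantile normalization, 7 under upper quartile scaling, 4 with the transcript length correction, 4 with array weights, and 0 to 14 with 1 animal left out. The 6 called lower became 3 with no filter, 1 under quantile normalization, 2 under upper quartile scaling, 2 under median centring, 1 with the length correction, 2 with no variance trend, 10 with array weights, and 0 to 17 with 1 animal left out. Where the fit without 1 animal called 0 factors in limma, 4 to 5 were higher and 9 to 12 lower at an unadjusted p under 0.05. The counts over all tested genes at that cutoff were not computed in those fits. With all animals, 5 of 58 factors were higher and 15 lower at that cutoff, beside 1064 and 2188 of 12988 tested genes. Without replicate 3 of the CrT+/y group 16 factors were higher and 17 lower at that cutoff, and the counts over all tested genes were not computed there either. The shares of all tested genes called moved too, from 2.9% higher and 7.25% lower to 0.374% and 1.08% with no filter, 4.07% and 4.27% under quantile normalization, 5.71% and 3.56% under upper quartile scaling, 3.77% and 4.06% under median centring, 4.44% and 5.09% with the length correction, 2.31% and 4.81% with no variance trend and 4.64% and 9.97% with array weights. The median log2 fold change of the factors turned from -0.03 to 0.034 under quantile normalization, 0.031 under upper quartile scaling and 0.0063 under median centring. For the 39 partners, 0 higher became 2 without replicate 3 of the CrT+/y group (0 to 2 over the animals left out), and 3 lower became 1 with no filter, 7 with a mean of at least 5 FPKM, 8 with array weights and 1 to 14 with 1 animal left out. The cause was not tested.

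Of the 20 alternatives, the call was kept in 12 for Eif4g2, 11 for Eef2k, 11 for Eif5b, 8 for Eif4e, 7 for Eif4g1, 7 for Eif3b and 6 for Eif2s1, and in 20 for Eif2ak1, 14 for Pabpc4 and 9 for Abce1. The adjusted p over these alternatives ran from 0.0208 to 0.173 for Eef2k and from 0.00446 to 0.195 for Eif5b.

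The labels give 3 replicate numbers in both groups. The paper states that both genotypes were drawn from shared litters, and the labels name no litter. The deviations of same-numbered animals from their group means correlated at -0.08, 0.05 and -0.05, beside -0.20 to 0.25 for animals of different number. These correlations cannot decide whether the numbers mark litters, and the fit as reported did not pair the animals. With the replicate block, in which replicate 0 of the CrT-/y group has no partner, 0 factors were called higher and 2 lower (Eif4e and Eif4ebp2), beside 1.28% and 3.16% of all tested genes. With the block and the transcript length correction 0 were called in each direction (7 higher and 9 lower at an unadjusted p under 0.05 in limma), beside 0.993% and 1.58% of all tested genes, and 1 partner was lower.

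In the simulated data, with 200 changed genes and the spread of all tested genes, 0% and 4.5% of log2 changes of 0.2 and 0.3 were recovered. The fit of the data called 1318 genes. The factors also varied less between animals than all tested genes (median log2 SD 0.056 against 0.083 in CrT-/y, 0.099 against 0.132 in CrT+/y). The simulated recovery is therefore not that of these factors. With 4 against 3 animals, a factor that was not called is not shown to be equal between the genotypes.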

Other observations

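Ratios between factors within an animal do not depend on a scaling factor of the library, and the pairs were chosen after the values were seen. A trend of the values with transcript length need not cancel in such a ratio. The annotated transcripts have 6580 bases for Eef2k and 3089 for Eef2, and 5638 for Eif4g1 and 1774 for Eif4a1. The part of length in these ratios was not tested. The ratio of Eef2k to its substrate Eef2 was 0.0201, 0.0229, 0.0211 and 0.0211 in the CrT-/y animals and 0.0165, 0.0177 and 0.0168 in the CrT+/y animals, higher in CrT-/y without overlap. The ratio of the scaffold Eif4g1 to the helicase Eif4a1 was 0.520, 0.458, 0.495 and 0.510 in CrT-/y and 0.619, 0.574 and 0.556 in CrT+/y, lower in CrT-/y without overlap. The ratio of the neuronal helicase Eif4a2 to Eif4a1 was 2.40, 2.21, 2.30 and 2.41 in CrT-/y and 2.84, 2.44 and 2.47 in CrT+/y, also lower without overlap, by a narrow margin. The cap-binding protein gene Eif4e and its inhibitor Eif4ebp2 had a ratio of 2.87 to 3.37 in CrT-/y and 2.63 to 3.22 in CrT+/y, and the ratio of Eef1a2 to Eef1a1 was 0.425 to 0.512 against 0.467 to 0.514. Both of these overlapped between the genotypes, as did Eif4g2 to Eif4g1, Eif4e to Eif4a1 and Eif5a2 to Eif5a. A ratio within an animal shows unequal values of the pair and not which member differs. The 60 factors together made up 1.17 to 1.23% of the summed FPKM of an animal.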
